A study of Homo sapiens with 8 samples.

Results

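The genes described here are 33 genes of the endoplasmic reticulum (ER), the compartment where secreted and membrane proteins fold. They were taken by symbol from a count table of 25435 genes, and all 33 were rows of it. By known function 18 were placed in a chaperone arm that folds proteins, 8 in a degradation arm that removes misfolded ones, 4 among the stress sensors and 3 in the translocon through which proteins enter the ER. The values are read counts from mRNA sequencing of HGC27, an established human gastric carcinoma line that the labels describe as being without p53. The compared cells overexpressed the p53 mutant R175H, R248Q or R273H, or GFP as the control, with 2 libraries in each of the 4 groups and 8 in all. The series title speaks instead of p53 KO and KD, so title and labels do not describe the groups alike, and the labels are followed here. All groups shared the HGC27 background and alpha-MEM medium, and the labels give no promoter, vector or clone for the overexpression. Whether the libraries of a group came from separate cultures is not stated in them, so p-values measure only the spread between these libraries, which may be technical.

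When unfolded proteins build up in the ER, HSPA5, the main ER HSP70 chaperone, leaves the sensors ERN1, EIF2AK3 and ATF6, and these start the unfolded protein response. ATF6 and the spliced product of XBP1 then switch on chaperone and degradation genes, while EIF2AK3 slows translation and favours ATF4 and its target DDIT3. Misfolded proteins are recognised, pulled back to the cytosol through a complex around SYVN1 and SEL1L, and degraded by the proteasome.

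ATF6 is known to act through the ER stress response element (ERSE) together with the factor NF-Y, so promoters were searched for its letters, CCAAT, any 9 bases and CCACG, and for those of the related ERSE-II, ATTGG, any 1 base and CCACG. Both strands were read in windows from 250 bases before to 50 bases after RefSeq starts (GRCh38.p14), and 30 of the 33 members had at least 1 such window. Only exact matches within these windows were counted, so an element with a changed letter or farther away was scored as absent. ERSE stood in 7 members and ERSE-II in 3 others. Of all 35116 promoter windows, 27 (0.0769%) held ERSE and 19 (0.0541%) held ERSE-II. These shares are of windows, whereas a member was counted once over all its windows, of which CANX had 4, so the units differ. The matches are shown 5′ to 3′ on the gene's strand because 7 of the 12 members that fell in R175H carried one. Capitals mark the fixed letters of ERSE or the whole of ERSE-II, and a match on the other strand reads CGTGG first. The first of the 2 HYOU1 matches overlapped the letters TGACGTGG, the core of the element bound by XBP1, which 256 windows (0.729%) held.
HSPA5, chr9:125241386-125241414, minus strand: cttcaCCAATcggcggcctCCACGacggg
HSP90B1, chr12:103930211-103930239, plus strand: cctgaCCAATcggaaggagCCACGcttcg
HSP90B1, chr12:103930316-103930344, plus strand: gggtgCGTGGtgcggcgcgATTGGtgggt
CALR, chr19:12938379-12938407, plus strand: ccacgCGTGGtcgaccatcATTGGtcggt
CRELD2, chr22:49918549-49918577, plus strand: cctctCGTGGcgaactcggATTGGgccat
PDIA6, chr2:10812848-10812876, minus strand: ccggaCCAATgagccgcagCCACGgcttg
CANX, chr5:179698773-179698801, plus strand: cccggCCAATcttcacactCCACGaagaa
XBP1, chr22:28800598-28800626, minus strand: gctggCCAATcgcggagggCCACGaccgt
SDF2L1, chr22:21642109-21642129, plus strand: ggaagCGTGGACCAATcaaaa
HYOU1, chr11:119057375-119057395, minus strand: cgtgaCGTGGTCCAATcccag
HYOU1, chr11:119057269-119057289, minus strand: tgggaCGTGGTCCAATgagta
HERPUD1, chr16:56932020-56932040, plus strand: cgccgATTGGGCCACGttggg

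Total counts were 6800463 and 9017777 in R175H, between 11287251 and 11788035 in the R248Q and R273H libraries, and 9769342 and 8928928 in GFP. Between the libraries of a group, chi-square per degree of freedom was 1.21 to 1.6 in the mutants and 5.72 in GFP. The fit used below pooled each gene's spread over the 4 groups. P-values against GFP thus draw in part on the tighter mutant libraries, and p-values between mutants in part on the wider GFP libraries. In GFP replicate 1, 809 genes with a transcript of at least 8000 nt lay at a median of -0.28 (log2) from their mean over all libraries, whereas this was 0.15 and 0.13 in R248Q and -0.04 in GFP replicate 2. With the trend on transcript length removed, calls against GFP changed for the long genes UGGT1, SSR1 and SEL1L and for SDF2L1, HSPA5 and HSP90B1. These changes are given with the genes below. Between mutants, 3 members gained a call in R175H over R248Q and 6 in R175H over R273H. Of 6 epithelial markers, KRT8 had 0.336 to 3.34 CPM (read counts scaled by TMM to a common library total), KRT18 was at 0 in 7 of the 8 libraries, and KRT19, EPCAM, CDH1 and CLDN4 were at or below 0.776 CPM in every library. Of 5 mesenchymal markers, VIM had 4612 to 5733 CPM, COL1A1, SPARC and FN1 had at least 33.1 CPM, and CDH2 had at most 0.854 CPM; summed markers of blood cells (6 genes) reached at most 4.71 CPM, those of endothelium (4 genes) 0.148 CPM and those of gastric secretory cells (5 genes) 0.206 CPM. Of 4 plasma cell markers SDC1, a membrane proteoglycan that other cells also make, had its lowest 2 libraries in R175H, with 110 and 98.9 CPM in R175H, between 126 and 142 CPM in R248Q and R273H, and 142 and 140 CPM in GFP. IGJ and TNFRSF17 were at 0 and MZB1 at or below 0.222 CPM, and the part of SDC1 in the results was not tested.

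In R175H the chaperone arm and the degradation arm moved apart. Of 18 chaperone genes 11 fell and 1 rose against GFP, with a median log2 fold change of -0.23, while of 7 tested degradation genes none fell and 3 rose, with a median of 0.14. Among all 13213 genes tested, 4.59% were called lower and 6.39% higher, with a median of 0.01. A call was an adjusted p below 0.05 in edgeR (quasi-likelihood F test, adjusted by Benjamini and Hochberg over all genes tested). Libraries of R175H lay wholly below those of GFP in 16 members and wholly above them in 8, beside 24.3% and 26.8% of all tested genes. The 4 sensors had no call (median 0.17), and of the 3 translocon genes 1 fell (median -0.18). The arms were drawn up with results of these data known, so the difference between their medians, -0.37, is given without a test.

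**Figure D1:**
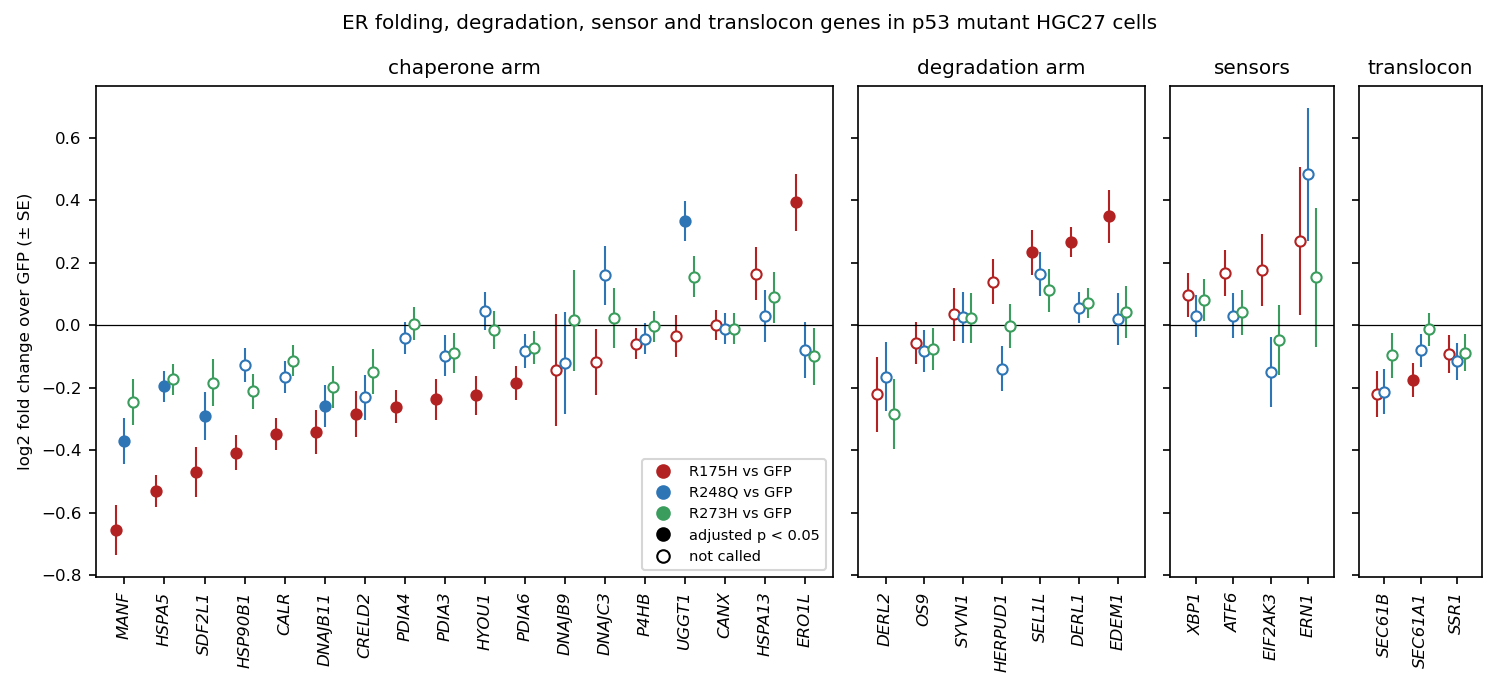
Log2 fold change over GFP with its SE (vertical axis) of the 32 tested members in R175H, R248Q and R273H, by class and ordered by the R175H value; filled points passed an adjusted p of 0.05. In R175H 11 of 18 chaperone genes are filled below 0 and 3 of 7 degradation genes are filled above it.

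HSPA5, which binds unfolded chains and holds the sensors inactive, had 447 and 443 CPM in R175H, 567 and 556 in R248Q, 572 and 570 in R273H, and 653 and 634 in GFP. The R175H libraries lay below all others and the GFP libraries above all others. The log2 fold change of R175H over GFP was -0.53 ± 0.05 (SE, n = 2 per group, adjusted p = 4.4e-06), or 0.692-fold. MANF, a small ER protein that binds HSPA5 and is secreted under stress, had 41.0 and 41.6 CPM in R175H, 49.3 and 51.4 in R248Q, 53.6 and 56.2 in R273H, and 67.2 and 62.9 in GFP. No mutant library reached the level of a GFP library, and the groups did not overlap. Its change in R175H, -0.65 ± 0.08 (SE), was the most negative of the 32 tested members.

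HSP90B1, the HSP90 of the ER, had 432 and 418 CPM in R175H, 529 and 503 in R248Q, 483 and 491 in R273H, and 587 and 541 in GFP, with a log2 fold change of -0.41 ± 0.06 in R175H over GFP (SE, adjusted p = 2.5e-04 from edgeR). CALR, a lectin chaperone that also stores calcium, had 762 and 806 CPM in R175H, 882 and 896 in R248Q, 913 and 931 in R273H, and 1013 and 983 in GFP (-0.35 ± 0.05, SE). In both genes the R175H libraries were the lowest 2 of the 8. CANX, the membrane-bound relative of CALR, did not follow it: it had 1173 and 1167 CPM in R175H and 1140 and 1200 in GFP, a log2 fold change of 0.00 ± 0.05 (SE), with overlapping libraries.

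Among the partners of HSPA5, SDF2L1, DNAJB11 and HYOU1 fell in R175H and DNAJB9 and DNAJC3 had no call. SDF2L1, which works in a complex with the cochaperone DNAJB11, had 64.6 and 57.4 CPM in R175H, 67.3 and 70.2 in R248Q, 74.5 and 73.7 in R273H, and 88.6 and 79.6 in GFP (R175H over GFP, log2 -0.47 ± 0.08, SE). DNAJB11 had 96.5 and 99.5 CPM in R175H and 131 and 117 CPM in GFP (-0.34 ± 0.07, SE). HYOU1, which exchanges nucleotide on HSPA5, had 347 and 374 CPM in R175H, 438 and 432 in R248Q, 422 and 412 in R273H, and 398 and 446 in GFP (-0.22 ± 0.06, SE, adjusted p = 0.029). The secreted stress protein CRELD2 had 85 and 87.5 CPM in R175H and 112 and 98 CPM in GFP (-0.28 ± 0.07, SE). The cochaperones DNAJB9 (-0.14 ± 0.18) and DNAJC3 (-0.12 ± 0.10) and the HSP70 family member HSPA13 (0.16 ± 0.09, SE) were not called.

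The enzymes of disulfide bond formation were split. Of the disulfide isomerases, PDIA4 had 419 and 445 CPM in R175H and 515 and 520 CPM in GFP (log2 -0.26 ± 0.05, SE), PDIA3, which acts on glycoproteins held by CALR and CANX, had -0.24 ± 0.07, and PDIA6 had -0.18 ± 0.05. P4HB, the most abundant isomerase per transcript length, had 996 and 1046 CPM in R175H and 1080 and 1049 CPM in GFP and no call (-0.06 ± 0.05, SE). ERO1L, the oxidase that recharges P4HB and is known as a hypoxia-induced gene, was the 1 member of the chaperone arm that rose. It had 80.9 and 75.8 CPM in R175H, 55.9 and 56.8 in R248Q, 58.1 and 53 in R273H, and 53.8 and 65.5 in GFP (R175H over GFP, log2 0.39 ± 0.09, SE, adjusted p = 0.011 from edgeR). Both R175H libraries were above all others, and GFP replicate 2 was the next highest.

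In the degradation arm, DERL1, a membrane protein of the channel that returns misfolded proteins to the cytosol, had 723 and 744 CPM in R175H, 638 and 631 in R248Q, 640 and 641 in R273H, and 614 and 607 in GFP. Its log2 fold change in R175H was 0.27 ± 0.05 (SE, adjusted p = 0.0025 from edgeR). EDEM1, which marks misfolded glycoproteins by trimming mannose, had 44.4 and 43.3 CPM in R175H, 34.5 and 35.2 in R248Q, 36.5 and 34.3 in R273H, and 34 and 34.8 in GFP (0.35 ± 0.08, SE). Both genes had their highest 2 libraries in R175H, and the other 6 lay close together. SEL1L, the adaptor of the ubiquitin ligase SYVN1, had 131 and 123 CPM in R175H, 127 and 115 in R248Q, 121 and 112 in R273H, and 105 and 111 in GFP (0.23 ± 0.07, SE, adjusted p = 0.047). This call was lost under 15 of 20 alternatives, with other scalings and with the length trend removed (0.10) among them, SEL1L having a transcript of 7925 nt.

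The other degradation genes were not called against GFP. The lectin OS9 had -0.06 ± 0.07, SYVN1 had 0.03 ± 0.09, HERPUD1, a stress-induced scaffold of that ligase, had 0.14 ± 0.07, and DERL2 had -0.22 ± 0.12 (log2, SE, R175H over GFP). DERL3 had 1 count in 1 R175H library, 1 count in 1 GFP library and none elsewhere, and was not tested. Among the sensors, ATF6 (0.17 ± 0.07), EIF2AK3 (0.18 ± 0.12), XBP1 (0.10 ± 0.07) and ERN1 (0.27 ± 0.24, SE) had positive values without a call. ATF6 had 64.6 and 66.6 CPM in R175H, 61.6 and 57.8 in R248Q, 61.6 and 58.8 in R273H, and 58.8 and 58.2 in GFP, and EIF2AK3 had 25.2 and 25.3 CPM in R175H, 21.6 and 18.7 in R248Q, 22.2 and 21.1 in R273H, and 20.6 and 24.3 in GFP. The R175H libraries were the highest of the 8 in both. XBP1, whose message ERN1 splices, lay between 104 and 121 CPM in all libraries. ERN1 was the least counted of these, with 5.61 and 6.06 CPM in R175H and 3.8 and 5.99 CPM in GFP. Gene-level counts do not show splicing of XBP1.

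Of the 3 translocon genes 1 was called. SEC61A1, the channel subunit, had 279 and 294 CPM in R175H and 321 and 327 CPM in GFP (log2 -0.18 ± 0.05, SE, adjusted p = 0.047 from edgeR). SEC61B had -0.22 ± 0.07 and SSR1, of the associated TRAP complex, -0.09 ± 0.06, neither of them called. SSR1 has a transcript of 9669 nt, and with the length trend removed it was called lower in R175H (-0.27) and in R248Q (-0.41). With GFP replicate 1 also left out these values were -0.07, not called, and -0.22, called.

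**Figure D2:**
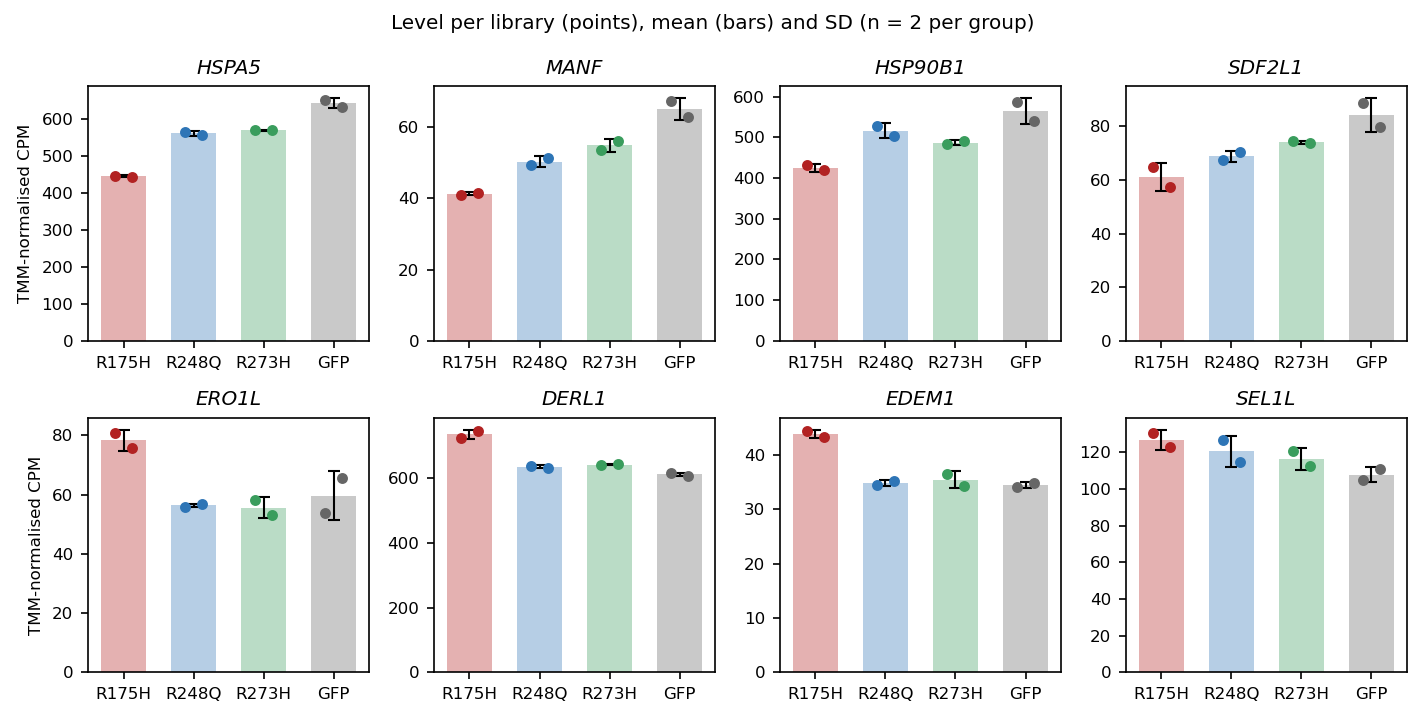
TMM-normalised CPM per library (points), group mean (bars) and SD (error bars, n = 2 per group) of 4 chaperone genes that fell in R175H, the oxidase ERO1L and 3 degradation genes, with the groups on the horizontal axis. HSPA5 is at 447 and 443 CPM in R175H and at 653 and 634 CPM in GFP, while DERL1 is at 723 and 744 CPM in R175H and at 614 and 607 CPM in GFP.

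The calls differed in how much they depended on single libraries and on the groups fitted. With R175H and GFP fitted alone, 6 members were lower and 0 higher, against 12 and 4 in the fit of all groups. PDIA3, PDIA4, PDIA6, HYOU1, CRELD2, SEC61A1, ERO1L, DERL1, EDEM1 and SEL1L lost their R175H calls against GFP in that fit. Under DESeq2 PDIA6, SEC61A1, EDEM1 and SEL1L lost theirs. Against GFP, the R175H calls of HSPA5, HSP90B1, CALR and MANF held under all 20 alternatives, with ranges of -0.55 to -0.50, -0.47 to -0.35, -0.39 to -0.31 and -0.70 to -0.60 on the log2 scale. SDF2L1 was lost only without R175H replicate 2 and DNAJB11 only without R175H replicate 1 (ranges -0.55 to -0.38 and -0.42 to -0.25), and DERL1 only when the 2 groups were fitted alone (range 0.25 to 0.29). ERO1L, EDEM1 and CRELD2 were lost without either R175H library (ranges 0.24 to 0.54, 0.26 to 0.37 and -0.38 to -0.18), and PDIA4 without R175H replicate 1. PDIA3, PDIA6, HYOU1 and SEC61A1 were lost whenever any 1 mutant library was left out, and without GFP replicate 1 PDIA3 (-0.13) and CRELD2 were also lost. Without R175H replicate 1, 5 members were lower and 1 higher; without R175H replicate 2 these were 6 and 1. The counting strand is not given in the sources used here, and of the 18 members called in any comparison 11 share exonic bases with a gene on the opposite strand in GENCODE 29, so their values are uncertain to that extent: CALR, CRELD2, DERL1, DNAJB11, EDEM1, ERO1L, HSP90B1, HYOU1, PDIA3, PDIA6 and SEC61A1. In these bulk libraries, fewer cells expressing a gene and less RNA per cell cannot be told apart.

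The distance between the arms was present in each R175H library. Relative to the mean of the GFP libraries, the median log2 level of the chaperone arm was -0.28 and -0.18 in R175H, -0.08 and -0.08 in R248Q, -0.06 and -0.05 in R273H, and 0.02 and -0.02 in GFP. That of the degradation arm was 0.11 and 0.16 in R175H, within 0.01 of 0 in the libraries of R248Q and R273H, and 0.01 and -0.01 in GFP. Chaperone minus degradation was thus -0.39 and -0.34 in the R175H libraries, -0.08 in both R248Q libraries, -0.06 and -0.05 in the R273H libraries, and 0.01 and -0.01 in the GFP libraries. The pooled SD between libraries of a group was 0.02 for this difference. It describes spread only, because the arms were drawn up with results of these data known. The GFP values mirror each other because their own mean was subtracted. In the lists outside the members, given below, the R175H medians over GFP were -0.05 for folding and 0.02 for degradation genes. With DNAJB9, a cochaperone that also serves degradation, moved to the degradation arm, the fitted difference was -0.32 in R175H, against -0.37 as first placed. With the length trend removed it was -0.35.

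**Figure D3:**
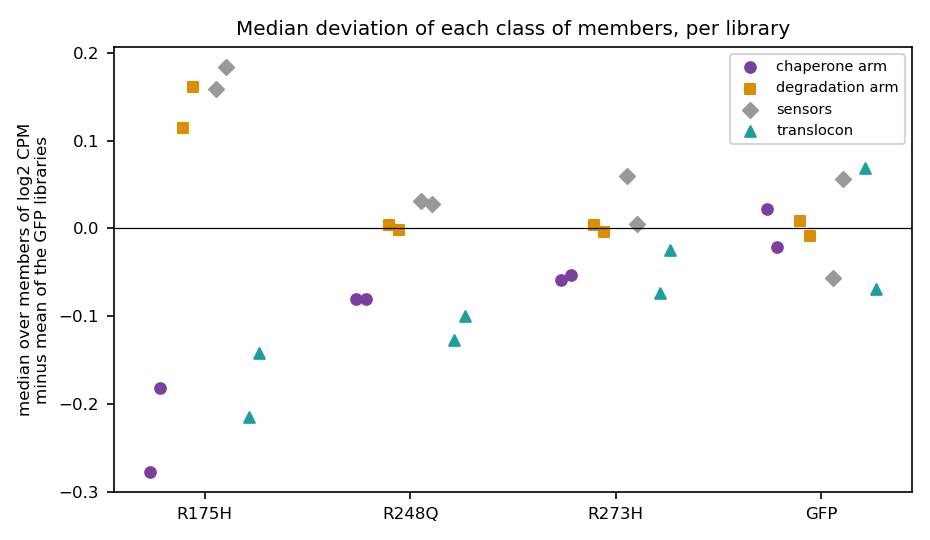
Median over the tested members of each class of log2 CPM minus the mean of the GFP libraries (vertical axis), with 1 point per library and class and the groups on the horizontal axis. The chaperone points of R175H, at -0.28 and -0.18, are the lowest of that class, and the degradation points of R175H, at 0.11 and 0.16, the highest of theirs.

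In R248Q fewer members moved. Against GFP 4 chaperone genes fell, 1 rose and no member of the other classes was called, beside 1.44% of all tested genes called lower and 4.88% called higher. MANF had -0.37 ± 0.07 (SE, n = 2 per group, adjusted p = 0.0059 from edgeR), SDF2L1 -0.29 ± 0.08, DNAJB11 -0.26 ± 0.07 and HSPA5 -0.20 ± 0.05 (log2, SE). With only the length trend removed, SDF2L1 had -0.15 and was no longer called. The chaperone median was -0.09 and the degradation median 0.02, with -0.01 for all tested genes. R248Q libraries lay wholly below those of GFP in 15 members and wholly above them in 5, beside 25.6% and 25% of all tested genes. All 4 falls were lost without either R248Q library, and without GFP replicate 2 the number lower was 12 instead of 4. With the length trend removed and without GFP replicate 1, 5 members were called lower, HSPA5 (-0.17), MANF (-0.28), CALR (-0.11), SSR1 (-0.22) and ERO1L (-0.25), whereas SDF2L1 (-0.17) and DNAJB11 (-0.14) were not.

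UGGT1, the enzyme that senses incomplete folding and sends glycoproteins back to CALR and CANX, was the member that rose in R248Q. It had 178 and 166 CPM in R248Q, 137 and 130 in R175H, 154 and 151 in R273H, and 130 and 144 in GFP (R248Q over GFP, log2 0.33 ± 0.06, SE, adjusted p = 0.0052 from edgeR). Its transcript, 10650 nt, is the longest of the 33. With the length trend removed its value in R175H was -0.23, called lower, and that in R248Q was 0.0028, so that the R248Q call was lost, as it was without R248Q replicate 1.

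**Figure D4:**
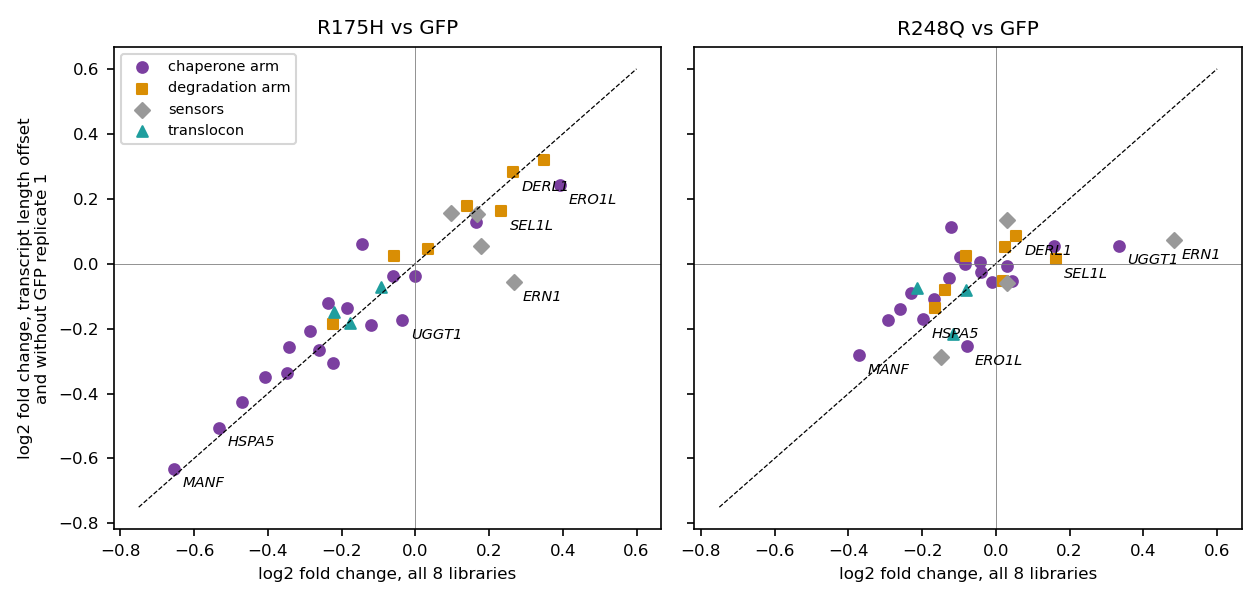
Log2 fold change of each tested member with all 8 libraries (horizontal axis) against the value with the transcript length trend removed and without GFP replicate 1 (vertical axis), in R175H (left) and R248Q (right); the dashed line marks equal values. In R175H, HSPA5 and MANF stay near the line, while in R248Q UGGT1 moves toward 0.

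In R273H no member was called against GFP by edgeR, DESeq2 or limma-voom. At an unadjusted p under 0.05 edgeR had 8 members, 7 of them lower, DESeq2 4 and limma-voom 8. All tested genes gave 0.25% called lower and 0.757% called higher. HSPA5 had -0.17 ± 0.05 (SE, adjusted p = 0.13 from edgeR), HSP90B1 -0.21 ± 0.06, MANF -0.25 ± 0.07 and DNAJB11 -0.20 ± 0.07 on the log2 scale. Libraries of R273H and GFP did not overlap in 15 members, 10 lower and 5 higher, beside 19.3% and 20.1% of all tested genes. With GFP replicate 1 as the only control library 11 members were called lower, and without it 1 was: HSPA5, at -0.15. With the length trend removed 2 were lower, HSPA5 (-0.19) and HSP90B1 (-0.20).

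The comparisons with GFP share the same control libraries, so the mutants were also compared with each other. In R175H over R248Q 7 members were lower and 4 higher, beside 3.22% and 3.95% of all tested genes. The lower ones were HSPA5 (-0.33 ± 0.05), HSP90B1 (-0.28 ± 0.06), MANF (-0.28 ± 0.08), HYOU1 (-0.27 ± 0.06), PDIA4 (-0.22 ± 0.05), CALR (-0.18 ± 0.05) and UGGT1 (-0.37 ± 0.07), all in the chaperone arm. The higher ones were ERO1L (0.47 ± 0.09) and the degradation genes EDEM1 (0.33 ± 0.08), HERPUD1 (0.28 ± 0.07) and DERL1 (0.21 ± 0.05, log2, SE, n = 2 per group). The libraries did not overlap in 15 members lower and 8 higher, beside 28.2% and 27.8% of all tested genes. Of these calls, CALR, MANF, PDIA4, HYOU1, DERL1, EDEM1 and HERPUD1 were lost whenever any 1 library of the groups compared was left out. ERO1L was lost without R175H replicate 1 or either R248Q library, and HSP90B1 and UGGT1 without R175H replicate 2 or R248Q replicate 1. CALR, MANF, HERPUD1 and EDEM1 were also lost under DESeq2. HERPUD1, not called against GFP, had 64.9 and 67.1 CPM in R175H and 53.4 and 55.5 CPM in R248Q.

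In R175H over R273H 4 members were lower and 2 higher, beside 1.41% and 2.22% of all tested genes. HSPA5 had -0.36 ± 0.05 (adjusted p = 5.1e-04 from edgeR), MANF -0.41 ± 0.08, PDIA4 -0.27 ± 0.05 and CALR -0.23 ± 0.05, against ERO1L at 0.49 ± 0.09 and DERL1 at 0.20 ± 0.05 (log2, SE). The libraries did not overlap in 17 members lower and 7 higher, beside 24.9% and 26.4% of all tested genes. HSPA5, MANF, PDIA4 and CALR were thus lower, and ERO1L and DERL1 higher, in R175H than in each of the other 3 groups by a direct test. HSPA5 alone kept its calls against R248Q and R273H under all 20 alternatives (-0.35 to -0.33 and -0.37 to -0.35); the other 5 genes lost theirs in both comparisons without 1 or more libraries of the groups compared. Leaving out 1 library at a time moved the number lower in R175H between 1 and 11 against R248Q and between 1 and 11 against R273H: 11 were lower in each comparison without either GFP library, 1 was lower than in R248Q without R175H replicate 2 or R248Q replicate 1, and 1 was lower than in R273H without R175H replicate 1 or either R273H library. The number higher ranged from 0 to 5 and from 0 to 3. HSP90B1 (-0.20 ± 0.06, adjusted p = 0.070) and EDEM1 (0.31 ± 0.08, adjusted p = 0.051) missed the threshold against R273H.

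Between R248Q and R273H no member was called by edgeR, DESeq2 or limma-voom, and each tool had 1 member at an unadjusted p under 0.05. All tested genes gave 0.144% called higher and 0.00757% called lower. The libraries did not overlap in 13 members lower and 6 higher in R248Q, beside 23.6% and 23% of all tested genes. The difference of R248Q from R273H was -0.02 for HSPA5, with a 95% interval from -0.13 to 0.08, and -0.13 for MANF, with a 95% interval from -0.28 to 0.03 (log2, intervals from the moderated degrees of freedom).

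Promoter motifs and changes were set side by side as a description. Of the 10 members with ERSE or ERSE-II, 7 fell in R175H and none rose (median -0.25): HSPA5, HSP90B1, CALR, CRELD2, PDIA6, SDF2L1 and HYOU1. CANX, XBP1 and HERPUD1 carried the letters and were not called. Of the 20 tested members with a promoter window and no exact match to either motif in it, 4 fell and 3 rose (median -0.06). MANF, with the most negative value, was among these 20, which does not show that it lacks such an element. All members with a motif except HERPUD1 and XBP1 belonged to the chaperone arm. The contrast by motif thus overlaps with that between the arms, and it was not made within an arm. Outside the 33 members, 20 tested genes had ERSE or ERSE-II, of which 1 fell and 4 rose (median 0.05), beside 508 lower and 688 higher among 10410 tested genes with a promoter window. In R248Q 2 of the 10 members fell (median -0.13), and in R273H none was called (median -0.09).

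Levels per transcript length set the members on a common scale. CALR was the most abundant member in each group, with 412 CPM per kilobase in R175H, 467 in R248Q, 485 in R273H and 525 in GFP, followed by P4HB with 392, 397, 408 and 409. HSPA5 had 114 CPM per kilobase in R175H, 144 in R248Q, 146 in R273H and 165 in GFP. DERL1, the most abundant degradation gene, had 220 in R175H, 190 in R248Q, 192 in R273H and 183 in GFP. DERL1 ranked above HSP90B1 in R175H (220 and 149 CPM per kilobase), R248Q (190 and 181) and R273H (192 and 170), and below it in GFP (183 and 197). ERN1 was the lowest tested member, with 0.740 CPM per kilobase in R175H and 0.622 in GFP.

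Other genes of the same pathway were counted from lists that do not contain the 33 members, and the counts stand beside shares over all tested genes of 4.59% lower and 6.39% higher for R175H, 1.44% and 4.88% for R248Q, and 0.25% and 0.757% for R273H. Of 37 tested ER folding genes 5 fell and 1 rose in R175H (median -0.05), among them the prolyl isomerases PPIB (-0.34 ± 0.07) and PPIC (-0.55 ± 0.12), the glucosidase MOGS (-0.24 ± 0.06) and the collagen chaperone SERPINH1 (-0.18 ± 0.05, log2, SE). Of 28 other degradation genes 3 fell and 3 rose (median 0.02): the ubiquitin ligases MARCH6 (0.28 ± 0.07) and RNF139 (0.21 ± 0.05) rose, while VCP, the ATPase that extracts proteins from the membrane (-0.21 ± 0.05), and the conjugating enzyme UBE2G2 (-0.27 ± 0.06) fell. Of 29 genes of translocation and glycosylation 1 fell, the signal recognition particle gene SRP19 (-0.46 ± 0.10), and 25 had a negative value (median -0.11).

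Of 18 other signalling genes of the unfolded protein response, 4 rose and 2 fell in R175H (median 0.11). The transcription factor DDIT3 had 22.0 and 20.1 CPM in R175H, 9.89 and 11.3 in R248Q, 11.8 and 12.3 in R273H, and 11.2 and 12.8 in GFP (R175H over GFP, log2 0.81 ± 0.13, SE). TRIB3 (0.77 ± 0.07) and CHAC1 (0.78 ± 0.09), known targets of ATF4 and DDIT3, also rose in R175H, and EIF2S1, the translation factor subunit that EIF2AK3 phosphorylates, fell (-0.33 ± 0.06, SE). In R273H TRIB3 (0.32 ± 0.07) and CHAC1 (0.52 ± 0.08, SE) were the 2 called, both higher. In R248Q 1 of the 18 was higher, and these 4 genes had no call there. In R273H none of the other 3 lists had a call, and in R248Q they had 3 lower and 2 higher in all.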

How the data were processed

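mRNA libraries (Kapa mRNA kit) were demultiplexed with bcl2fastq and aligned with STAR 2.5 on hg19, per the submitters' processing notes; how reads were counted, with which annotation and strand setting, is not given in the sources used here. The authors deposited raw counts of reads for each gene and library. edgeR 4.0.16 (R 4.3.3) was used: filterByExpr (minimum count 10, minimum total 15) kept 13213 genes and 32 of 33 members, libraries were scaled by TMM, and all 8 libraries entered 1 quasi-likelihood fit of 4 group means (4 residual degrees of freedom, common coefficient of variation 4.51%). Of the 6 comparisons, 3 set a mutant against GFP and 3 set mutants against each other; the threshold was an adjusted p (Benjamini-Hochberg) of 0.05. SE is the absolute log2 fold change over the square root of F; SD is between the 2 libraries of a group in CPM.

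The members, arms, lists and alternatives were chosen with earlier results of these data known. All members may be named; of each other list up to 4 genes with the lowest p in R175H were. Lists outside the members covered ER folding, degradation, signalling, and translocation and glycosylation, and markers covered epithelial, mesenchymal, gastric secretory, blood, endothelial and plasma cells. Transcript lengths (GENCODE 29, longest APPRIS principal transcript, else longest basic) covered 97.3% of tested genes. The length trend was a loess (span 0.3) of each library's deviation on log2 length over genes with a log2 CPM above 3, entered as an offset. Promoter sequences are from RefSeq (GRCh38.p14), whose coordinates are not those of the files. Alternatives included DESeq2 1.42.0 and limma-voom 3.58.1. The edgeR procedure was tested on simulated data with known changes before use. Those data had the same spread in every group and no length trend, so they do not cover the wider spread of the GFP libraries. Depth was 6800463 to 11788035 counts, so a floor of 3 counts was 0.443 CPM in the shallowest library; this covers counting error only. Results for 1 gene are not reported here.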

Additional observations from a re-analysis of the deposited data

How the results depend on the processing

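No member's call changed sign under any alternative, and of 38 calls over the 6 comparisons 6 held under all 20 alternatives. Scaling by DESeq2's size factors or library size alone, a mean CPM of at least 1 and limma-voom kept every count within 1.5 times and every arm median within the spread between libraries. In what follows a pair of counts is lower and higher, and mainly results outside these limits are given. DESeq2 gave 2 higher in R175H over GFP, 2 lower in R248Q over GFP, 2 higher in R175H over R248Q and 1 higher in R175H over R273H. Fitting only the groups compared gave 6 and 0 in R175H over GFP, 1 lower in R248Q over GFP, 10 lower in R175H over R273H and 1 higher in R248Q over R273H. With no filter beyond 1 count, which admits DERL3, 7 members were lower in R248Q over GFP, 1 in R273H over GFP and 7 in R175H over R273H; the degradation median was 0.18 in R175H and -0.028 in R248Q, and chaperone minus degradation -0.41 and -0.059.

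With the length trend removed, 0 members were higher in R248Q over GFP, 2 lower in R273H over GFP and 9 lower in R175H over R273H; the degradation median was 0.10 in R175H, -0.050 in R248Q and -0.0057 in R273H, and chaperone minus degradation was -0.35, -0.036 and -0.056. Adding the replicate block to it gave 0, 2 and 9, 0.10, -0.051 and -0.0058, and -0.35, -0.034 and -0.056. Removing the length trend without GFP replicate 1 and without the block, 0 were higher in R248Q over GFP, 2 lower in R273H over GFP, 11 and 8 called in R175H over R248Q, 12 lower in R175H over R273H, and 1 and 1 in R248Q over R273H; the degradation median in R175H was 0.16, the chaperone median in R248Q -0.048 and the difference there -0.062. Moving DNAJB9 to the degradation arm gave a degradation median of 0.087 in R175H and -0.032 in R248Q, and a difference of -0.32 and -0.052.

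Deviations of same-numbered libraries correlated between -0.24 and 0.08 across pairs of groups. The most negative values were those of GFP with R273H (-0.24) and with R175H (-0.20), and their cause was not tested. With the replicate block alone, 8 members were lower and 3 higher in R175H over GFP, against 12 and 4 without it. PDIA3, PDIA6, HYOU1, SEL1L and SEC61A1 lost their calls there. In R175H over R248Q 5 were lower and 3 higher, against 7 and 4. With this block 1 member was lower in R248Q over GFP and 1 higher in R175H over R273H. With the GFP numbers swapped, chosen after seeing the data, 7 were lower in R248Q over GFP, 1 in R273H over GFP and 7 in R175H over R273H.

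Leaving out 1 library at a time gave 5 to 14 lower and 1 to 4 higher in R175H over GFP, 0 to 12 and 0 to 4 in R248Q over GFP, 0 to 11 and 0 to 1 in R273H over GFP, 1 to 11 and 0 to 5 in R175H over R248Q, 1 to 11 and 0 to 3 in R175H over R273H, and 0 to 1 higher in R248Q over R273H. The lone library left in a group was assumed to vary like the others. Chaperone medians ranged from -0.28 to -0.18 in R175H, -0.16 to -0.049 in R248Q and -0.13 to -0.048 in R273H, degradation medians from 0.11 to 0.18 in R175H and -0.0037 to 0.026 in R273H, and chaperone minus degradation from -0.40 to -0.35, -0.18 to -0.050 and -0.15 to -0.052 in the 3 mutants. The highest counts against GFP came without GFP replicate 2. The cause of these differences was not tested. Members with few counts, such as ERN1 and DNAJB9, had SEs of 0.16 to 0.24 against GFP. ERN1 in R248Q over GFP had 0.48 ± 0.21 (SE) without a call, so even an estimate well above its SE can go uncalled at this depth. The same value was 0.27 with the length trend removed and 0.07 with GFP replicate 1 also left out. Whether ERN1 changed is thus not settled.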
